A study of Mus musculus with 8 samples.

Results

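RNA recovered with an antibody against V5 was compared with RNA recovered with an antibody against GFP, both directed at a single fusion protein, DAZL carrying GFP and a V5 tag. The comparison rests on 4 of the 8 arrays of the series, V5 IP 1 and 2 and GFP IP 1 and 2, paired by replicate number. The other 4 arrays hold a mock immunoprecipitation (IP) with normal mouse IgG and total input RNA, 2 arrays each, and serve here as the background. Each V5 array was set against the GFP array of the same number, gene by gene.

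DAZL is a germ cell protein that binds RNA. It recognises short U-rich elements in the untranslated regions of mRNAs, can recruit poly(A)-binding protein to them, and influences their translation and stability. In an RNA-IP, an antibody pulls down a protein together with the RNA attached to it, so every RNA bound by the fusion protein should be reachable through either tag. RNA that sticks to one antibody or to proteins which that antibody also recognises would appear with that antibody alone, which is why a pair of antibodies is used.

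All 8 samples came from the same kind of culture, of primordial germ cells obtained from Dazl-GFP-V5 ES cells. These are a derivative of the mouse embryonic stem cell line V6.5, of mixed C57BL/6 129SV strain. Markers of other cell types were also above background, as given below. The fusion was present in every group, controls included, so no sample lacked the tagged protein, and the mock IP differed from the others by its antibody. The ES cells were freed of feeder cells and differentiated for 12 days. Lysates were not crosslinked with ultraviolet light, so an RNA associated with DAZL through another protein is not separated from one it binds itself. Whether the ES cell line was 1 clone, which promoter drove the fusion and which animal the GFP antibody came from were not stated in the labels. The series describes 2 separate RNA-IP experiments, and replicate 1 lay on slide 1 and replicate 2 on slide 2 in every group. V5 IP always had array position 2 and GFP IP position 3, so antibody and position cannot be told apart.

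Values are log2 of the processed spot intensity minus the 75th percentile of the gene probes on the same array. A level of 0 is therefore the 75th percentile of the array, and a difference of 1 is 2-fold. Since each array is scaled to its own signal, differences describe the makeup of the recovered RNA and not the amount recovered. Between 62.2% and 67.6% of 41174 probes were well above background on the 4 IP arrays, against 61.3% to 70.6% over all 8. Mock 1 stood apart, with a 75th percentile of 352 intensity units against 641 to 1130 on the other arrays. Of the primordial germ cell markers, 9 of 9 on the array were above background in input and in both IPs. Their mean level was 2.67 and 2.12 on the V5 arrays and 2.71 and 2.25 on the GFP arrays, against 1.63 and 1.45 in input. All 6 embryonic stem cell markers were above background in the 3 kinds of sample, as were 5 of 7 feeder or other fibroblast markers in each IP and 7 of 7 in input. The mean fibroblast marker level was -2.06 and -1.86 with V5 and -2.34 and -2.06 with GFP, against -0.88 and -1.09 in input and -0.94 and -1.23 in mock IP. Embryonic stem cell markers, like germ cell markers, stood above input. Their mean was 4.76 and 4.17 with V5 and 4.78 and 4.24 with GFP, against 3.66 and 3.63. Neural markers did so too, at -0.59 and -0.61 with V5 and -0.65 and -0.55 with GFP, against -1.59 and -1.0. Endoderm markers lay slightly above input, and cardiac markers, like fibroblast markers, below it. Of 4 blood markers 2 were above background in input and 2 in each IP, while embryonic haemoglobin Hba-x was at background on all IP arrays. For marker levels in the input of such mixed cultures, fewer cells of a type and less RNA per cell cannot be told apart. Why marker levels differed between IP and input was not tested.

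The first question was whether the antibodies recovered the same RNAs in the same proportions. They gave nearly the same profile within an experiment. Across 19054 genes the Pearson correlation of the levels was 0.994 between V5 1 and GFP 1 and 0.995 between V5 2 and GFP 2. Arrays of the same antibody from the other experiment were less alike, at 0.981 for V5 1 with V5 2 and 0.984 for GFP 1 with GFP 2. These correlations are across genes, which share probes' brightness and are not independent replicates.

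The spread of the differences showed the same order. V5 minus GFP had a median absolute size of 0.13 on replicate 1 and 0.14 on replicate 2, and 94.6% and 94.9% of genes lay within 1.5-fold. Replicate 2 minus replicate 1 had a median absolute size of 0.41 in V5 IP and 0.36 in GFP IP. Beyond 2-fold were 400 genes (2.10%) between the antibodies on replicate 1 and 334 (1.75%) on replicate 2, against 2211 between the V5 replicates and 1699 between the GFP replicates. The deviations of V5 IP and GFP IP from their group means correlated at 0.78 between arrays of the same number. Experiment and slide changed together, so their shares in the differences between replicates cannot be told apart.

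No gene passed in V5 IP against GFP IP. With limma over all 8 arrays and Benjamini-Hochberg adjustment, 0 of 19054 genes (0%) were higher and 0 lower at an adjusted p under 0.05. The smallest adjusted p was 0.131, and 187 genes had an unadjusted p under 0.05, fewer than a share of 0.05 of all genes. This fit did not pair the arrays by number. The ± values given below are its SE, which include shifts between the experiments. The median SE was 0.31 in this fit and 0.24 with the replicate number as a block. With the replicate number as a block, 1 gene (0.00525%) passed, the cDNA AK037068, and 404 genes had an unadjusted p under 0.05. AK037068 was well above background on the V5 arrays only, so it was kept for testing only through the group where it was high. With the block and only the 4 IP arrays, 0 genes passed and 2480 had an unadjusted p under 0.05. That fit left 1 residual degree of freedom. When a single array was left out, the calls higher and lower numbered 8 and 1 without V5 1, 6 and 0 without V5 2, and 0 and 2 without GFP 2, while leaving out any of the other 5 arrays gave 0 calls.

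How much alike the antibodies were can be bounded gene by gene. The 95% interval of V5 minus GFP lay wholly within 2-fold for 12837 genes (67.4%), and for 16751 (87.9%) with the replicate block. Its median half-width was 0.71 on the log2 scale. For the remaining genes the interval of 2 arrays a group reached beyond 2-fold.

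Dazl mRNA, which encodes the targeted protein, was recovered to a like extent with both antibodies. Its level was 4.04 and 4.32 on the V5 arrays and 3.90 and 4.63 on the GFP arrays, against 1.06 and 2.05 in mock IP and 2.93 and 2.83 in input. The ranges of V5 and GFP overlapped, and all 4 IP arrays lay above all 4 control arrays. V5 minus GFP was -0.08 ± 0.39 (SE; 95% interval -0.98 to 0.82; limma adjusted p = 1.0), with 0.14 on replicate 1 and -0.31 on replicate 2. A second Dazl probe gave -0.25 and -0.22. The sign of the mean difference turned with normexp background correction and without V5 1 or GFP 2. Whether these probes also read the transcript of the fusion was not stated in the labels.

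**Figure D1:**
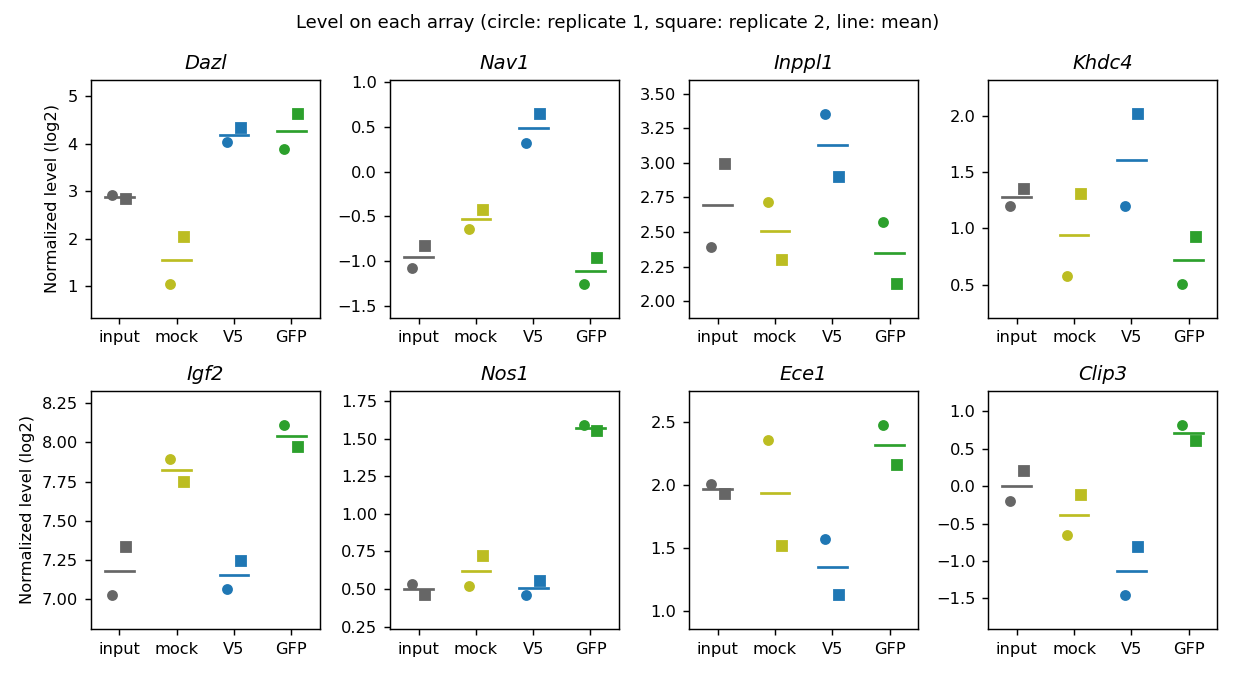
Normalized log2 level (0 is the 75th percentile of the array) of 8 genes on each array, with replicate 1 as circles, replicate 2 as squares and the group mean as a line; each panel has its own vertical scale. Dazl lies high with both antibodies, whereas in the other 7 panels the V5 arrays and the GFP arrays do not overlap.

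The RNAs standing farthest above both controls on all 4 IP arrays are given as a description. Genes were ranked by the smallest of the 8 differences between the 4 IP arrays and the mock and input arrays of the same number. A gene thus had to be high with both antibodies, and its small V5 to GFP distance follows in part from the choice. Dck, which encodes deoxycytidine kinase of nucleoside salvage, was at 5.39 and 4.78 with V5 and at 5.31 and 4.99 with GFP, against 1.42 to 1.61 on the 4 control arrays. Cyp51, a demethylase of cholesterol synthesis, was at 3.20 and 2.79 with V5 and 3.24 and 2.98 with GFP, while its control arrays lay between -0.63 and -0.02. For Foxa1, a forkhead transcription factor of endoderm, the V5 arrays gave -3.23 and -3.32 and the GFP arrays -3.22 and -3.27, against -7.55 to -6.80 in the controls, where it was not well above background on any array. In each of these 3 genes the V5 and GFP ranges overlapped, far from the controls. The other 9 of the 12 leading genes were Arxes1, Olfr701, the ubiquitin ligase gene Rnf138, the vesicle fusion gene Vamp4, Ttc33, the synaptic vesicle gene Synpr, the ubiquitin-conjugating variant Ube2v2, the peptide transporter gene Slc15a1 and Aard. Of these, Olfr701 was not well above background on any control array, Synpr on no mock array and Slc15a1 on only 1 mock array. V5 minus GFP over the 12 ranged from -0.25 for Slc15a1 to 0.24 for Aard. Only 1 gene was called on opposite sides of mock IP by the antibodies, AK033930, described with the large differences. No V5 or mock array of AK033930 was well above background, so its V5 call below mock IP compares dim signals.

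Genes farthest below both controls were chosen in the same way, by the largest of the 8 differences, and are likewise a description. Vegfb, a vascular growth factor gene, was at 1.67 and 1.76 with V5 and 1.89 and 1.53 with GFP, against 4.39 and 3.27 in mock IP and 3.47 and 3.34 in input. Gadd45gip1, a mitochondrial ribosome-associated protein gene, was at 2.82 and 2.92 with V5 and at 2.63 and 2.70 with GFP, with 4.08 to 4.98 in the controls. Of the 8 lowest genes, Pltp and Bcam also differed by at most 0.19 between the antibodies, and Layn and S100a8 were not well above background on any IP array. Zfp936 was above background on 1 V5 array and on no GFP array. The linker histone gene H1f5 was the member with the largest distance, at -2.18 and -2.17 with V5 against -2.82 and -2.98 with GFP. The H1f5 arrays of the antibodies did not overlap, and the difference of 0.73 ± 0.31 did not pass (limma adjusted p = 1.0).

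Enrichment over a control transferred from one antibody to the other about as well as within an antibody. IP minus mock on replicate 1 was set against IP minus mock on replicate 2, so that no array was used on both sides. The Pearson correlation across the 19054 genes was 0.866 for V5 with V5 and 0.879 for GFP with GFP, and 0.861 and 0.857 across antibodies. Against input it was 0.844 and 0.878 within an antibody and 0.871 and 0.827 across. Over all genes against mock IP, limma called 2776 (14.6%) higher and 4065 (21.3%) lower with V5, and 3104 (16.3%) higher and 5048 (26.5%) lower with GFP. Both of those comparisons share the mock arrays. The spread of IP minus mock was 1.27 and 0.81 (SD across genes, replicates 1 and 2) with V5 and 1.30 and 0.90 with GFP, larger with GFP on each replicate.

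Small differences between the antibodies recurred from one experiment to the other where the signal was strong. V5 minus GFP on replicate 1 and on replicate 2, which share no array, correlated across all genes at Pearson r = 0.256 and Spearman rho = 0.393, and 12755 genes (66.9%) had the same sign. Among 7720 bright genes, those above the array's 75th percentile on all 4 IP arrays, r was 0.587 and rho 0.607, although the differences were small. Their SD was 0.17 on each replicate, and 99.3% and 99.7% of bright genes lay within 1.5-fold. The 95% interval lay within 2-fold for 6382 of them (82.7%), and for 7581 (98.2%) with the replicate block.

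By decile of the mean IP level, r was 0.675 in the brightest decile, 0.102 in the third dimmest and 0.228 in the dimmest. The SD of V5 minus GFP on replicate 1 rose from 0.17 to 0.87 over the same deciles. A second probe of the same gene gave a further reading. For 1553 genes with both probes bright, the mean V5 minus GFP of the probes correlated at 0.688, and at 0.440 and 0.454 when one probe was taken from replicate 1 and the other from replicate 2. For all 6552 genes with a second probe these values were 0.243, 0.130 and 0.130. The probes of a gene share an array, and antibody and array position were the same on both slides, so a recurring difference cannot be assigned to the antibody rather than the position.

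**Figure D2:**
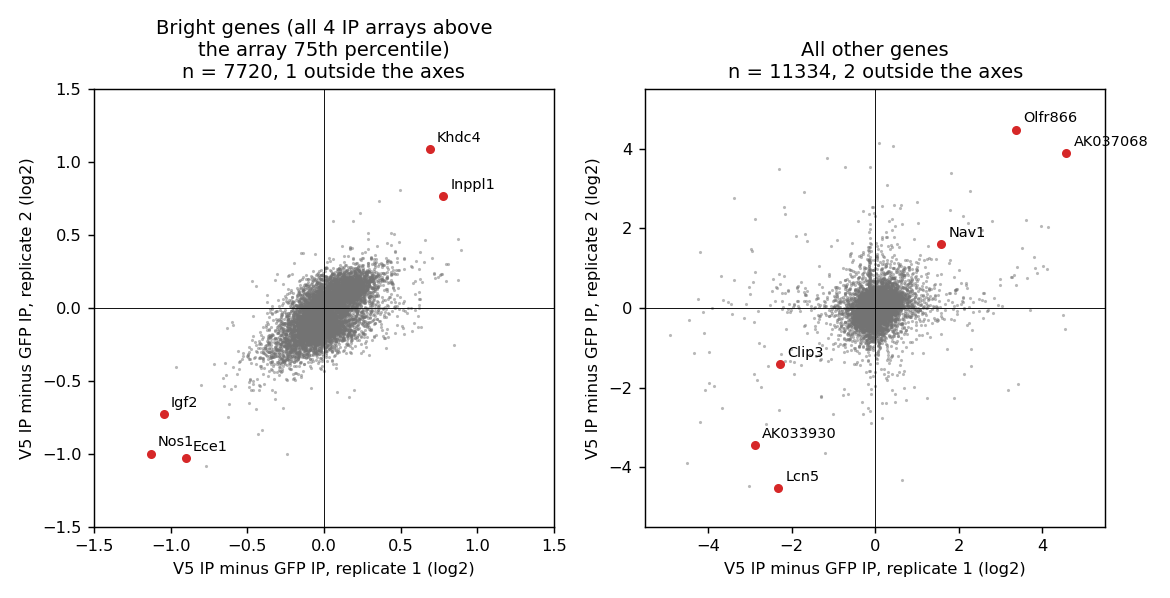
V5 IP minus GFP IP (log2) on replicate 1 (horizontal) and replicate 2 (vertical), 1 grey point a gene, for 7720 bright genes on the left and the other 11334 on the right, with different axis ranges and named genes in red. The bright genes lie along the diagonal within a narrow range, while the dimmer genes form a broad cross with few points far out on the diagonal.

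**Figure D3:**
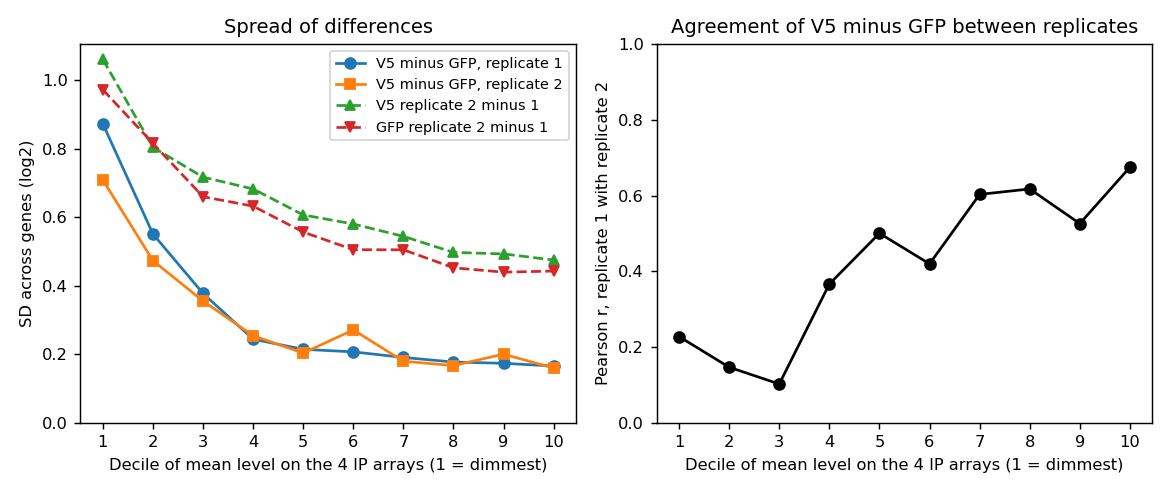
By decile of the mean level on the 4 IP arrays (1 is the dimmest), the SD across genes of V5 minus GFP and of replicate 2 minus replicate 1 (left), and the Pearson correlation of V5 minus GFP between replicates (right). In each decile both V5 minus GFP lines lie below both replicate lines, and the correlation is highest, at 0.675, in the brightest decile.

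A group of 12 bright genes differed by at least 0.5 on the log2 scale in the same direction on both replicates, and 0 did so in opposite directions. This limit was chosen after the values were seen, and none of the 12 passed the test across all genes. Over all genes, both V5 arrays lay above both GFP arrays for 1897 (9.96%), and both GFP arrays above both V5 arrays for 1275 (6.69%). Of the 12, 2 were higher with V5 and 10 with GFP.

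Igf2, an imprinted fetal growth factor gene, was at 7.07 and 7.24 with V5 and at 8.11 and 7.97 with GFP. Input was at 7.03 and 7.33 and mock IP at 7.89 and 7.75, so the V5 arrays lay with input and the GFP arrays above it, next to mock. The difference was -0.89 ± 0.23 (SE, limma adjusted p = 1.0), and a second Igf2 probe gave -1.23 and -1.20. Nos1, the neuronal nitric oxide synthase gene, was at 0.46 and 0.55 with V5, next to the 0.46 to 0.72 of the control arrays, and at 1.59 and 1.55 with GFP. GFP arrays thus stood alone for Nos1, at 2.09-fold over V5 (-1.06 ± 0.22, limma adjusted p = 1.0), but its second probe gave 0.18 and -0.07. Ece1, which encodes an endothelin-converting protease, was at 1.57 and 1.13 with V5 and 2.47 and 2.16 with GFP, a difference of -0.96 ± 0.33. The Ece1 mock arrays, at 2.35 and 1.51, spanned the gap between the antibodies.

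The opposite direction held for Inppl1 and Khdc4. Inppl1, a phosphoinositide phosphatase gene, was at 3.35 and 2.90 with V5 and 2.58 and 2.13 with GFP, and input, at 2.39 and 2.99, lay within that range. Khdc4, a KH-domain RNA-binding protein gene, was at 1.20 and 2.02 with V5 and at 0.51 and 0.92 with GFP. Its pairs differed by 0.69 and 1.09. The SD of 0.58 between the V5 arrays includes a rise from replicate 1 to replicate 2 seen with both antibodies. The SE of the Khdc4 difference was 0.37, and 0.23 with the replicate block. The others higher with GFP included Tgfbr2, a receptor of transforming growth factor beta, at -0.66, Zfp46 at -0.69, Zfand2a at -0.64, the mitochondrial genes Opa3 and Sfxn3 at -0.59 and -0.58, the adhesion gene Mpzl2 at -0.56 and an unnamed transcript cluster. Second probes of Opa3, Zfand2a and Mpzl2 had the same sign on both replicates, while the second Tgfbr2 probe gave 0.68 and -0.09.

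Large differences were few and mostly at the edge of detection. Over 2-fold in both pairs were 34 genes (0.178%) higher with V5 and 38 (0.199%) higher with GFP, 72 in all (0.378%), while 24 genes passed 2-fold in opposite directions. Of the 72, 53 lay in the dimmest decile. Well above background on all 4 IP arrays were 12, on both arrays of 1 antibody and neither of the other 38, and on no IP array 7. At probe level, the V5 array had more of the 41174 probes well above background in each experiment. The shares were 63.7% and 67.6% with V5 against 62.2% and 65.3% with GFP. Beside this, 183 probes were above background on both V5 arrays and neither GFP array, and 37 on both GFP arrays and neither V5 array. Set against the same count by experiment, 1016 probes were above background on both replicate 2 IP arrays and neither replicate 1 array, and 119 the reverse.

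Among genes seen on all 4 IP arrays, Nav1 had the smallest p with V5 above GFP. Nav1 encodes a microtubule-associated protein of growing axons. It was at 0.32 and 0.65 with V5 and -1.25 and -0.96 with GFP, with mock IP at -0.64 and -0.43 and input at -1.08 and -0.84. Both V5 arrays lay above all others. The ratio was 3.01-fold (1.59 ± 0.25, limma adjusted p = 0.472, and 0.111 with the replicate block), and a second probe gave 2.70 and 2.38. Ttc24, a tetratricopeptide repeat gene, was at -3.16 and -3.09 with V5 and -4.44 and -4.66 with GFP (1.42 ± 0.23, adjusted p = 0.472), and its difference was -0.00891 with normexp. Rian, an imprinted long non-coding RNA, was at -3.54 and -2.63 with V5 and -4.56 and -3.75 with GFP. The Rian arrays did not overlap between antibodies, with the lower V5 array just above the higher GFP array.

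In the direction of GFP, Clip3, a microtubule-linker gene, was at -1.45 and -0.81 with V5 and 0.82 and 0.61 with GFP. The mock and input arrays of Clip3, from -0.65 to 0.21, fell in the gap between the antibodies. The GFP to V5 ratio was 3.59-fold (-1.85 ± 0.32, limma adjusted p = 0.786), while the second probe gave only -0.38 and -0.14. Tspan18, a tetraspanin gene, was at -1.20 and -0.75 with V5 and at 0.22 and 0.44 with GFP. For Tspan18 it was the V5 arrays that left the range of the controls, which spanned -0.04 to 0.79 (difference -1.31 ± 0.28, limma adjusted p = 1.0). Xrcc3, a DNA repair gene, was at -1.84 and -1.52 with V5 and -0.83 and -0.49 with GFP, next to controls of -1.03 to -0.43. Muc2, a secreted intestinal mucin gene, differed by -1.69 ± 0.27 (adjusted p = 0.472) and the active-zone gene Erc2 by -1.16 ± 0.28. Defa22, a member of the alpha-defensin family whose near-identical copies a probe may not separate, differed by -1.52 ± 0.29. Inhba, the activin beta A gene, differed by -1.27 ± 0.57, with pairs at -1.34 and -1.19 and an SE of 0.27 with the replicate block. Its V5 and GFP arrays did not overlap, though they nearly met at -4.10 and -4.04.

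Most other genes of smallest p were detected on both arrays of 1 antibody at most, and their folds are bounds set by a rule. The mean of the brighter group was divided by the signal of the dimmer arrays. Where higher, the lowest signal of any probe well above background on that array took its place. Undetected probes can lie above that lowest signal, as Cldn13 did with GFP (-5.73 and -6.33, against -7.40 and -7.80). Thus "at least" marks a bound under this rule and not a strict lower limit. Higher with V5, the olfactory receptor gene Olfr866 was at least 12.6-fold over GFP, the fatty acid desaturase relative Fads2b at least 5.41-fold, the tight junction gene Cldn13 at least 4.49-fold, the glycine receptor gene Glra4 at least 4.14-fold, the cerebellin gene Cbln3 at least 3.89-fold and the cornified-envelope gene Sprr2f at least 2.31-fold. A single array moved a pair of these bounds by over 1.5 times. For Fads2b the bound was 2.50-fold without V5 1 and 11.7-fold without V5 2, and for Olfr866 it was 22.2-fold without GFP 1 and 7.13-fold without GFP 2. Higher with GFP, the neuronal gene Astn2 was at least 4.17-fold over V5, the chemokine-scavenging receptor gene Ackr4 at least 3.92-fold and the axoneme gene Spag6 at least 3.45-fold. Lox, a collagen cross-linking enzyme gene, and the lipocalin gene Lcn5 were above background on 1 of 2 V5 arrays and both GFP arrays, and the testis gene Tex33 on both V5 arrays and 1 GFP array. A probe was kept if well above background on both arrays of any group. Of the genes in this paragraph so far, Ackr4 and Lox were also detected on both input arrays. Each of the others was kept only through the antibody where it was high, so its difference is not independent evidence. Pcdhb5, a protocadherin gene of a family of close copies, was seen on all 4 and differed by 1.07 ± 0.27. Hsf4, Olfr78 and Podn were not well above background on any IP array, so their differences are not read. With normexp, 10 of the 12 genes named with V5 above GFP changed sign, all except Nav1 and Olfr866. Relative to the median of all genes, which normexp moved to -0.10, 8 of the 12 did, since Ttc24 and Cldn13 stayed above it.

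A pair of cDNAs known here by accession was named after the values were seen. AK037068 was at -3.26 and -4.22 with V5 and at -7.83 and -8.12 with GFP, while mock IP and input lay between -7.99 and -7.33. Only the V5 arrays were above background, at least 14.5-fold over GFP (limma adjusted p = 0.131 and 0.00148 with the replicate block). AK033930 was above background on both GFP arrays, at -5.21 and -5.11, and on neither V5 array, at -8.09 and -8.55. Its GFP to V5 ratio was at least 6.02-fold (limma adjusted p = 0.279). Each of these cDNAs was kept for testing only through the antibody where it was high, so its fold and p are not independent evidence of a difference.

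Across 19 gene lists with 745 measured members, 0 members were called between the antibodies (0% of all genes), 0 with the replicate block, and 2, Rian and Lox, differed by over 2-fold in both pairs (0.378% of all genes). Lists are described by their median V5 minus GFP, beside 0.01 for all genes, and by how many members lay above 0 on both replicates, beside 36.2% of all genes, or below 0 on both, beside 30.8%. The median of all genes itself moved to 0.18 with spike-in scaling and to -0.10 with normexp, so list directions are read relative to it.

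Genes of energy and protein metabolism, which lay below mock IP with both antibodies, were slightly closer to it with V5. Of 77 oxidative phosphorylation genes 68 lay above 0 on both replicates and 4 below, with a median of 0.19 (0.23 and 0.16 by replicate). The median against mock IP was -0.96 with V5 and -1.14 with GFP. For all genes that median was itself -0.44 with each antibody, and for proteasome genes, nearest to it, -0.53 with V5 and -0.66 with GFP. Atp5e, an ATP synthase subunit gene, was at 5.58 and 5.91 with V5 and 5.06 and 5.65 with GFP, and Ndufa1, of complex I, differed by 0.30 ± 0.23. Sdha and Sdhd, subunits of succinate dehydrogenase, lay the other way, at -0.10 and -0.12.

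Cytosolic ribosomal protein genes had a median of 0.13, with 71 of 83 above 0 on both replicates and 1 below. Rps26 was at 6.88 and 7.04 with V5 and 6.47 and 6.73 with GFP, and Rpl10a differed by 0.26 ± 0.22. Rplp0, of the ribosomal stalk, was at -0.01 and Rps4l at -0.19. Of 78 mitochondrial ribosomal protein genes 60 lay above 0 on both replicates (median 0.13), with Mrps18c at 0.38 and Mrps2 at -0.20. Proteasome genes had a median of 0.09, with 25 of 39 above 0 on both. No single member of these 4 lists passed.

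Histone genes, many of whose mRNAs end in a stem-loop and not a poly(A) tail, had a median of 0.24 with 25 of 32 above 0 on both replicates. H1f5 led them at 0.73, and the germ-line linker histone gene H1f8 was at -0.05. Fibroblast and matrix genes had a median of 0.15 with 16 of 27 above 0 on both; the part of other cells in this was not tested. Col6a1, a collagen VI chain gene, differed by 0.36 ± 0.37, and Pdgfra, a growth factor receptor gene of mesenchyme, by -0.21 ± 0.32. For these 6 lists the median stayed above that of all genes under all 19 alternatives run. For long non-coding and small structured RNAs it was 0.17, with 9 of 16 above 0 on both, and fell below that of all genes without GFP 1 and without V5 2. Malat1, a nuclear-retained RNA, was at -1.47 and 0.28 with V5 and -2.04 and -0.80 with GFP. Its V5 and GFP arrays overlapped, its pairs differed by 0.57 and 1.08, and all of its 3 other probes had the same sign. Meg3, an imprinted long non-coding RNA, differed by -0.36 ± 0.39.

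**Figure D4:**
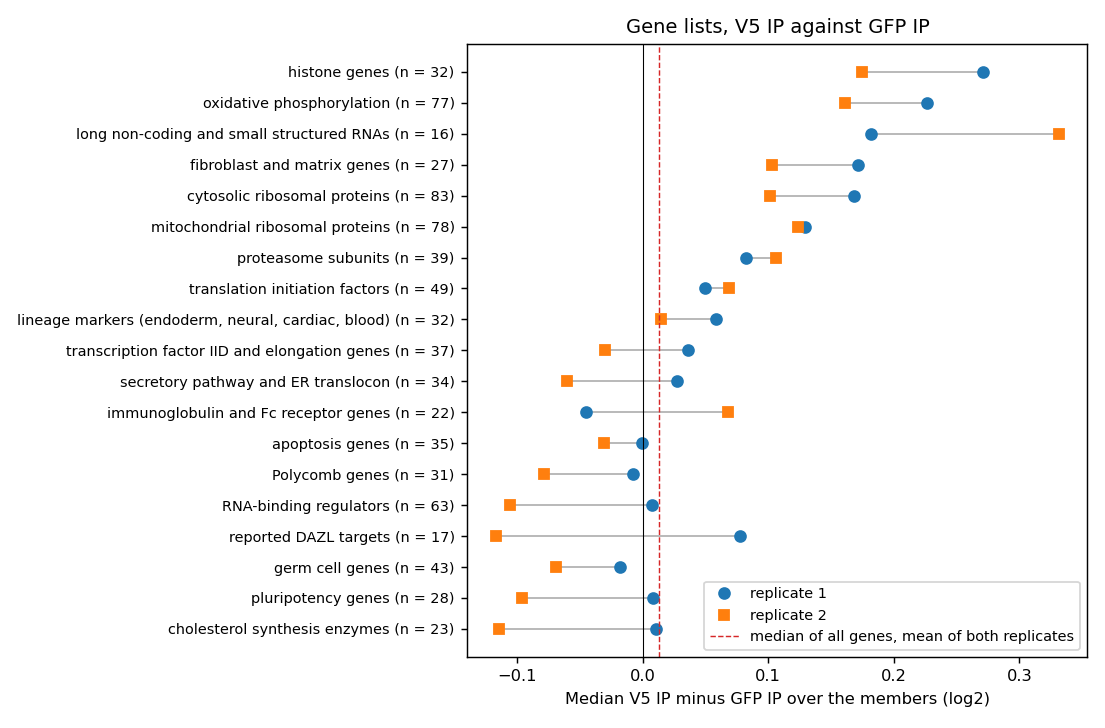
Median V5 IP minus GFP IP (log2) over the measured members of each of 19 lists, by replicate, with the number of members; the dashed line is the median of all genes. Oxidative phosphorylation, histone, ribosomal protein, proteasome and fibroblast lists lie above 0 on both replicates, and the highest value is 0.33, for long non-coding and small structured RNAs on replicate 2.

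Lists related to DAZL and to the germ line lay close to 0 or slightly toward GFP. Reported DAZL targets had a median of -0.04, with 3 of 17 above 0 on both replicates and 6 below. This list was drawn up from work that may include these samples. Sycp3, of the synaptonemal complex, was at 0.08 and 0.47 with V5 and -0.76 and 0.16 with GFP, overlapping between antibodies. The initiator caspase gene Casp9 differed by -0.20 ± 0.29. Germ cell genes had a median of -0.04 (10 of 43 above, 15 below), with Dmc1, a meiotic recombinase gene, at -0.33. Within them the meiotic axis gene Sycp2 was above background on both V5 arrays, at -4.48 and -5.52, and on neither GFP array. It was also above background in input, at -4.18 and -3.78. The Sycp2 pairs differed by 3.28 and 0.78. Its bound was at least 3.60-fold over GFP, and 2.46-fold to 5.26-fold with 1 IP array left out.

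Pluripotency genes had a median of -0.05 (7 of 28 above 0 on both and 12 below), with the nuclear receptor genes Nr0b1 at 0.25 and Esrrb at -0.31. The median was -0.03 for RNA-binding regulators (14 of 63 above, 24 below), with Igf2bp1 at -0.35 and Celf3 at 0.62, and -0.03 for Polycomb genes (5 of 31 above, 14 below), with Jarid2 at -0.29 and Bmi1 at 0.23. Cholesterol synthesis genes had a median of -0.07 (9 of 23 above, 11 below), with Insig1 at -0.28 and Tm7sf2 at 0.29. Relative to all genes, the medians of these 6 lists turned above 0 under 3 or 4 of the 19 alternatives, normexp among them.

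The other lists had medians between -0.02 and 0.05: apoptosis, transcription factor IID and elongation, secretory pathway, lineage marker, translation initiation, and immunoglobulin and Fc receptor genes. Sec61g, a subunit of the ER translocon, differed by 0.48 ± 0.28, and Bax, a pro-apoptotic gene, by 0.34 ± 0.30. Of 22 genes in the immunoglobulin and Fc receptor list, 8 lay above 0 on both replicates and 7 below, with Fcer1g at 0.48 ± 0.34 and Igkv4-72 at -0.28 ± 0.32. This list also holds Ighmbp2, which is neither kind of gene.

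The distance between the antibodies also varied with how strongly an RNA stood above or below mock IP, measured in the other experiment so that no array was shared. On replicate 2, 2537 genes that were at least 4-fold above the median gene on replicate 1 had a median V5 minus GFP of -0.16, and 10.4% of them were higher with V5. For 1805 genes at least 2-fold below the median gene the median was 0.14, and 87.3% were higher with V5. On replicate 1 the strongly enriched genes, 997 by replicate 2, were at 0.04 with 58.1% higher with V5, and 175 depleted genes at 0.29 with 69.7%. The narrower spread of enrichment with V5 was thus seen at both ends on replicate 2 and at the depleted end on replicate 1. Relative to all genes, the replicate 2 value of the enriched genes turned to 0.18 with normexp, and the replicate 1 value of the depleted genes to -0.08 without the filter on dim probes.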

How the data were processed

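RNA of 8 samples (V5 IP, GFP IP, mock IP and input, 2 each) was read on Agilent one-colour arrays with Feature Extraction 9.1.3.1, per the file headers. The processed values are linear spot intensities, background-subtracted with a substitute value for dim spots, per the file headers; raw mean intensity with local background served an alternative. A further table deposited by the authors holds a signal that is background-subtracted and median-normalized, per the file headers; log2 of that deposited signal plus 0.1 was an alternative, and its deposited quality score only matched its 45018 entries to spots (tolerance 1e-05). Other deposited flag columns marked outliers, saturation and spots well above background.

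The levels were log2 intensity minus the array's 75th percentile. Probes well above background on both arrays of a group were kept (28132 of 41174), and the kept probe with the highest mean stood for its gene (19054 genes). Probe sequences were not used here. RefSeq names of GRCm38.p6 were assigned to 22951 probes by accession and 3096 by synonym; 6659 already had a current symbol and 8468 stayed as named in the files. V5 IP was compared with GFP IP by limma 3.58.1 in R 4.3.3 (two-sided, Benjamini-Hochberg, all 8 arrays, spread shared over groups), tested on simulated data. Separate cultures for the replicates were not stated, so the spread behind the p-values is that of the arrays and may be technical. The number of arrays limits precision.

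The numbers pair the samples, since the series describes 2 experiments; the deviations of V5 and GFP arrays of 1 number correlated at 0.78 and those of other pairs of groups at 0.30 to 0.52. Alternatives were the replicate block, quantile normalization, normexp (offset 50), median centring, the deposited table, other probe filters, the mean of probes, only the 4 IP arrays, each array left out and, added after the data were seen, spike-in scaling.

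Named genes were Dazl, the 12 with the smallest p in each direction whose arrays do not overlap between antibodies (no gene was called), the 12 highest and 8 lowest in both IPs against both controls, any called on opposite sides of mock IP, and 2 members at each end of each list. Accession-like names were left out, except where stated. Bright genes and those over 2-fold in both pairs were added later. The comparison, members and 20 lists were chosen with earlier results of these data known; the list of mitochondrially encoded RNAs had 0 measured members. The result of 1 list member that the rule names is not reported here.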

Additional observations from a re-analysis of the deposited data

Results flagged for a closer look

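For 25 named genes the V5 arrays lay on one side of the mock array of the same number on both replicates and the GFP arrays on the other. The difference between the antibodies was tested with limma over all 8 arrays and passed for none of them. With the replicate block it passed for AK037068 alone, which was kept for testing only through its V5 arrays. V5 minus GFP was positive for AK037068 (4.24), Fads2b (3.02), Glra4 (2.60), Sycp2 (2.03), Nav1 (1.59), Ttc24 (1.42), Pcdhb5 (1.07), Khdc4 (0.89), Inppl1 (0.77) and Lum (0.59). It was negative for AK033930 (-3.16), Spag6 (-2.01), Clip3 (-1.85), Lox (-1.75), Muc2 (-1.69), Defa22 (-1.52), Tspan18 (-1.31), Inhba (-1.27), Erc2 (-1.16), Nos1 (-1.06), Ece1 (-0.96), Igf2 (-0.89), Zfp46 (-0.69), Tgfbr2 (-0.66) and Igf2bp1 (-0.35). Many were named because of a large difference between the antibodies, which makes opposite sides of mock IP more likely. The share of all genes with this pattern was not counted. For AK037068, Glra4, Fads2b, Sycp2 and Lum no GFP or mock array was well above background. For AK033930 and Spag6 no V5 or mock array was, so these sides rest on dim signal. Igf2bp1 lay only 0.03 and 0.04 above mock IP with GFP.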

How the results depend on the processing

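The count of genes called between the antibodies was 0 in each direction under quantile normalization, normexp, median centring, the deposited table, both other filters, the mean of probes, only the 4 IP arrays and the added spike-in scaling. With the replicate block, 1 gene was called higher with V5 (AK037068); with the block and only the 4 IP arrays, 0. Leaving out each array gave 0 to 8 genes higher and 0 to 2 lower, with the lone array of a group assumed to vary like the others. The Dazl difference turned to 0.0496 with normexp. With spike-in scaling it was 0.0858, but this scaling moves all genes alike, and relative to their median Dazl stayed at -0.097. It ranged from -0.45 to 0.28 over the arrays left out. The correlation of V5 minus GFP between replicates was 0.13 with normexp and 0.036 without the filter on dim probes. With normexp the differences of Cbln3 (-0.56), Glra4 (-0.47), Ttc24 (-0.00891), Cldn13 (-0.041), Fads2b (-0.40), Pcdhb5 (-0.43), Hsf4 (-0.81), Tex33 (-0.32), Sprr2f (-0.73) and Olfr78 (-0.77) changed sign; relative to the median of all genes Ttc24 and Cldn13 did not turn, and the cause was not tested. Without V5 2, Fads2b and AK037068 passed (adjusted p = 0.0214 for each), and without V5 1, Lcn5 (0.0259) and AK037068 (0.0409). The block changed no other call of a named gene. Fads2b, Lcn5 and AK037068 were kept for testing only through the antibody where they were high. Dim signal limits the genes near background, where few differences recurred.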
